A study of Homo sapiens with 6 samples.

Results

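Markers used to recognise stem-like cells in head and neck and other carcinomas were examined in MOC2, a cell line from a mouse squamous carcinoma of the mouth, after CRISPR/Cas9 targeting of the gene for HuR. The 9 genes, Prom1, Cd44, Cd24a, Aldh1a1, Aldh1a3, Aldh3a1, Sox2, Bmi1 and Klf4, were chosen by symbol from 21872 rows of a table of read counts per gene. All 9 were in the table, and all 9 held enough counts to be among the 12293 genes tested. The only measured value in the selection rule is the count in control library 1, which decides how a row is read: rows at 0 there hold multiples of 11 and were divided by 11. No marker was at 0 in that library, so the 9 rows stand as deposited. The list was proposed with results of this same comparison already known, so the number of markers that changed describes them and supports nothing about stem cell markers as a class.

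The HuR knockout group held 3 libraries from cells treated with lentiviral particles carrying CRISPR/Cas9 against HuR, and the control group held 3 libraries from cells treated with control particles. The knockout is a single isolated clone, and nothing in the labels ties its libraries to separate clones. The p-values therefore measure the spread between these libraries, which may be technical. Traits of the isolated clone and effects of HuR loss cannot be told apart in this design. Below, a gene that rose or fell in knockout is described for these libraries only. The titles call the same libraries knockdown. The species label reads human, while the gene symbols and the series title are those of mouse.

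Library totals after division lay between 16746166 and 20097377 counts in knockout and between 16158516 and 21294330 counts in control. Levels are given as CPM, the usual depth-scaled count, here on TMM-scaled library totals, and are compared between libraries, not between genes, since they are not corrected for transcript length. Elavl1 encodes HuR; it had 116, 114 and 105 CPM in knockout, against 107, 120 and 117 CPM in control. Its mRNA therefore does not check the labels. Knockout library 3 stood apart: its log2 CPM correlated with knockout libraries 1 and 2 at 0.924 to 0.931 across genes, against 0.978 between those libraries and 0.987 to 0.992 among the control libraries. In bulk RNA, fewer cells of a type and less RNA per cell cannot be told apart.

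Stem-like tumour cells are usually sorted by surface proteins or by enzyme activity. Prominin-1 (CD133), CD44 and CD24 are the surface proteins most often used, with CD44-positive cells being the classical stem-like fraction of head and neck carcinoma. The aldehyde dehydrogenases of the ALDH1A subfamily, which turn retinaldehyde into retinoic acid, give the signal of the common enzyme-activity assay. SOX2 and KLF4 are transcription factors of the pluripotency reprogramming set, and BMI1 is a polycomb protein needed for self-renewal in many tissues.

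The markers did not move together. Aldh1a1, Aldh3a1 and Bmi1 rose in knockout, Prom1 and Aldh1a3 fell, and Cd44, Cd24a, Sox2 and Klf4 did not pass the test (edgeR's quasi-likelihood test, Benjamini-Hochberg adjusted over all 12293 genes, threshold 0.05). Thus 5 of 9 markers changed, where 35.7% of all genes tested changed. The 3 that rose stand beside 20.3% of all genes that rose, and the 2 that fell beside 15.4% that fell. The CPM of the groups did not overlap for 6 of 9 markers, against 57.6% of all genes tested. The median log2 fold change was 0.46 over the markers and 0.03 over all genes tested. Leaving out control library 1, 2 or 3 left 2, 2 and 1 of the markers past the threshold, and leaving out knockout library 3 gave 6. The count over all genes moved the same way. It was 4392 of 12293 with all libraries and 2685 of 12478, 2312 of 12555 and 2358 of 12562 without control library 1, 2 or 3. Without knockout library 3 it was 6021 of 12471.

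**Figure D1:**
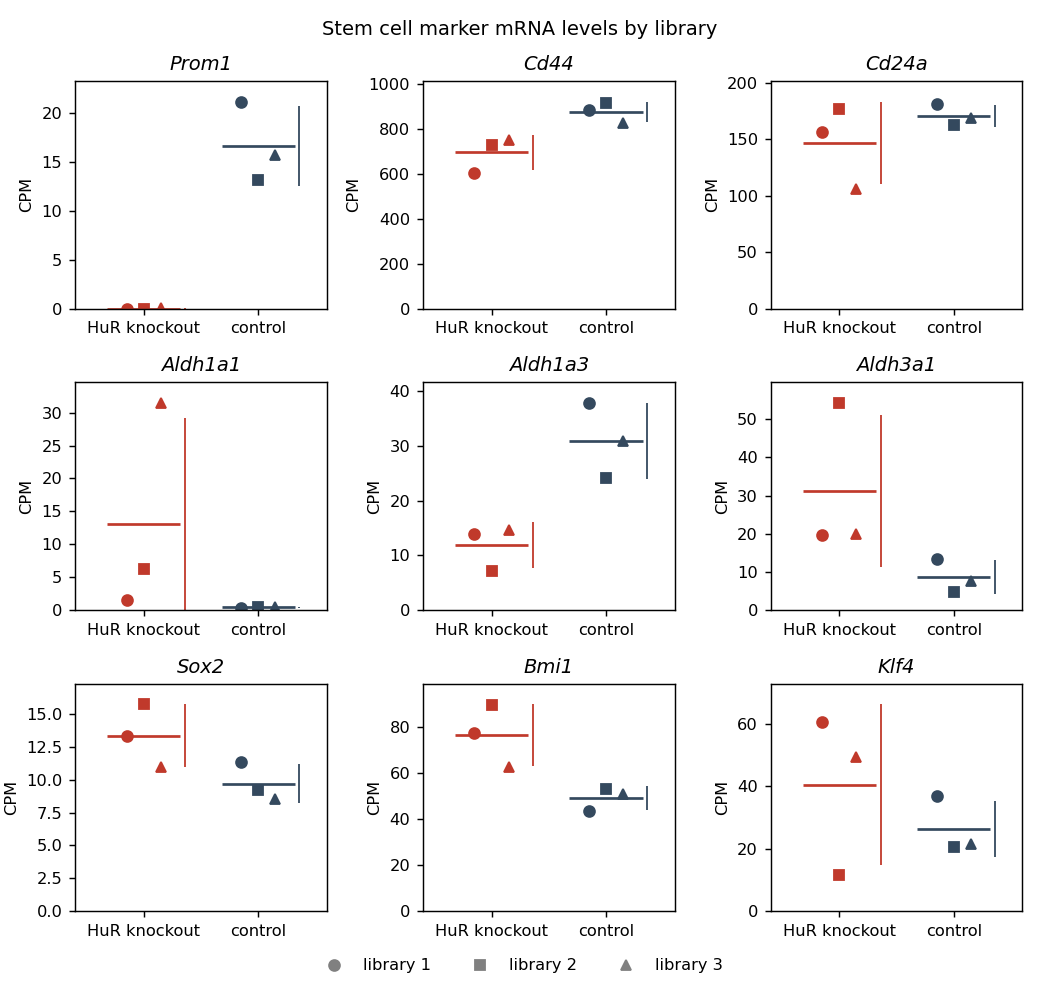
CPM of each marker (vertical axes, linear from 0) in the 3 HuR knockout libraries (red, left) and the 3 control libraries (dark, right). Symbols mark libraries 1 to 3, horizontal lines the group means and vertical lines 1 SD to each side (cut at 0); Prom1 is at or near 0 in every knockout library, and Aldh1a1 spreads from 1.47 to 31.5 CPM in knockout.

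Prom1 encodes prominin-1, a membrane glycoprotein of plasma membrane protrusions. It had 0, 0 and 1 count in knockout libraries 1, 2 and 3, and 452, 267 and 259 counts in control libraries 1, 2 and 3. In CPM this was at most 0.0612 in knockout and 21.2, 13.1 and 15.7 in control. Every control library was far above every knockout library, and the single knockout count came from the library that stood apart. The log2 fold change fitted by edgeR was -9.39 (SE 0.618, 95% interval -10.87 to -7.91, adjusted p = 0.000331). As a ratio of counts pooled over the groups, the level was 926 times lower in knockout. The exact 95% interval of that ratio, 166 to 36609, covers counting error only. The ratio was 617 without knockout library 1 and 583 without knockout library 2. Without knockout library 3 the knockout group was at 0, and Prom1 was at least 217-fold lower against a floor of 3 counts over the group. Its paralogue Prom2 was at 2.40, 1.08 and 0.306 CPM in knockout and 1.92, 1.82 and 1.70 CPM in control and did not pass (log2 fold change -0.52, SE 0.643, adjusted p = 0.563).

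Cd44 encodes the main cell surface receptor for hyaluronan. It had 607, 731 and 755 CPM in knockout, against 888, 917 and 828 CPM in control (libraries 1, 2 and 3 of each). The groups did not overlap, yet the difference was small: a log2 fold change of -0.33 (SE 0.136, 95% interval -0.66 to -0.01) that missed the threshold (adjusted p = 0.103 by edgeR). It passed without knockout library 3 (-0.39, adjusted p = 0.0136). The counts are per gene and do not separate the standard from the variant isoforms of CD44.

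Cd24a encodes CD24, a small mucin-like surface protein whose low level, together with high CD44, defines stem-like cells in breast carcinoma. It was at 157, 177 and 106 CPM in knockout and 182, 163 and 169 CPM in control. Knockout library 2 lay inside the control range, library 1 just below it and library 3 well below it. The fold change was -0.22 on the log2 scale (SE 0.201, 95% interval -0.70 to 0.26, adjusted p = 0.424). The ratio of Cd44 to Cd24a counts, which is comparable between libraries though not corrected for length, was 3.87, 4.13 and 7.11 in knockout libraries 1, 2 and 3 and 4.89, 5.64 and 4.90 in control. It was thus below the control range in 2 knockout libraries and above it in the third, and no common shift to high Cd44 with low Cd24a was seen.

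Genes that make the ligand of CD44, tie it to the cytoskeleton, cleave it or splice its mRNA were examined beside it. Of the 22 symbols listed, 21 were in the table and 19 were tested. Of these, 3 rose, 6 fell and 10 did not pass, and the median log2 fold change was -0.41. Over all genes tested, 20.3% rose and 15.4% fell. Those shares are the background for the counts of this list and of every list below. Moesin (Msn), which links the CD44 tail to actin, fell to 426, 361 and 364 CPM in knockout, against 961, 1109 and 1061 CPM in control (log2 fold change -1.44, SE 0.136, adjusted p = 0.000775). Its relatives ezrin (Ezr) and radixin (Rdx) did not pass, at -0.34 and 0.03. The protease Adam10, which sheds the CD44 ectodomain, rose to 177, 220 and 235 CPM in knockout, against 81.3, 82.9 and 85.1 CPM in control (1.34, SE 0.142, adjusted p = 0.00111). Esrp1 and Esrp2, epithelial splicing regulators that favour the variant exons of CD44, fell as well (-4.29, adjusted p = 0.00171, and -2.24, adjusted p = 0.00293). Without knockout library 1 Esrp1 was at -5.10. The other genes that rose were Spp1 and Cemip. Spp1, the CD44 ligand osteopontin, rose by 3.86 (2.95 without knockout library 3). Cemip is a hyaluronan-degrading protein whose row was divided by 11. It was at 1.85, 5.68 and 8.57 CPM in knockout, against 0, 0.0491 and 0 CPM in control. The 0 in control library 1 both set that division and enters the test. With such rows left out, 2 of 18 genes tested in this list rose. Has2 and Has3, which make hyaluronan, were among those that fell (-1.64 and -3.37); Has2 lost its call without knockout library 1 or control library 1 or 3 (adjusted p = 0.0578, 0.087 and 0.0604).

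The aldehyde dehydrogenase markers diverged. Aldh1a1 had 27, 128 and 514 counts in knockout libraries 1, 2 and 3, and 8, 8 and 7 counts in control libraries 1, 2 and 3. These are 1.47, 6.27 and 31.5 CPM in knockout and 0.374, 0.393 and 0.425 CPM in control. Every knockout library was above every control library, and the knockout libraries differed among themselves 21.4-fold. On the log2 scale the fold change was 5.02 (SE 1.18, 95% interval 2.19 to 7.84, adjusted p = 0.0186). Without knockout library 3 it was 3.28, still past the threshold. Aldh1a1 no longer passed when control library 1, 2 or 3 was left out (adjusted p = 0.0732, 0.0767 and 0.0738). The log2 fold change was 4.97, 4.98 and 5.04 in those sets. With limma-voom it was 3.92 and did not pass either (adjusted p = 0.111).

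Aldh1a3, the ALDH1A enzyme that gives most of the activity signal in several human carcinoma lines, moved the opposite way. It was at 13.9, 7.06 and 14.7 CPM in knockout and 37.8, 24.1 and 30.8 CPM in control, with no overlap between the groups. The fold change was -1.38 on the log2 scale (SE 0.321, 95% interval -2.15 to -0.61, adjusted p = 0.0179). Aldh1a3 no longer passed when control library 1 or 3 was left out (adjusted p = 0.0669 and 0.0593). The ratio of Aldh1a3 to Aldh1a1 counts was 9.48, 1.13 and 0.467 in knockout libraries 1, 2 and 3, against 101, 61.3 and 72.4 in control. Like the ratio above it is comparable between libraries only, and every knockout library lay below every control library.

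Aldh3a1, an enzyme of aldehyde detoxification known as a corneal protein and an aryl hydrocarbon receptor target, was at 19.6, 54.3 and 19.8 CPM in knockout and 13.4, 4.67 and 7.53 CPM in control. The groups did not overlap, and knockout library 2 was the highest. The log2 fold change was 1.87 (SE 0.552, 95% interval 0.55 to 3.19, adjusted p = 0.0392). Without knockout library 2 it was 1.21 and no longer passed (adjusted p = 0.0918). The call was also lost without knockout library 3 (0.0637) and without control library 2 or 3 (0.125 and 0.133).

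**Figure D2:**
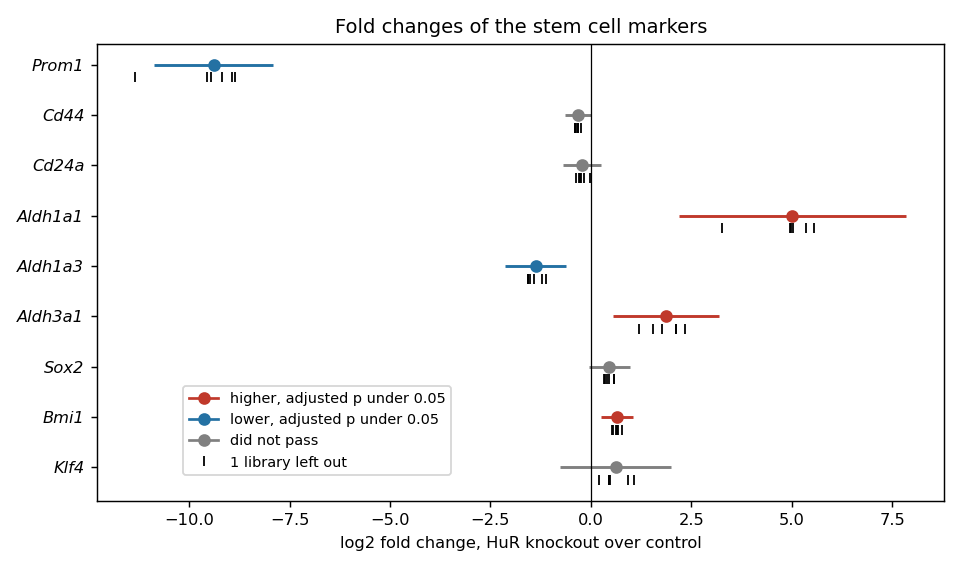
Log2 fold change of each marker, HuR knockout over control, from the fit across all genes (horizontal axis). Circles are the values with 95% intervals as lines, coloured by the call, and black ticks the values with 1 library left out; 3 markers rose, 2 fell and 4 did not pass, and the value of Prom1 rests on 1 knockout count.

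Of the 18 other aldehyde dehydrogenases, 14 were tested. Of these, 7 rose, 1 fell and 6 did not pass, where 20.3% of all genes tested rose and 15.4% fell. The median log2 fold change of the 14 was 0.33. Without control library 1, 2 or 3, 4, 3 and 3 of them rose. Aldh1l2, the mitochondrial enzyme of folate metabolism, rose to 87.1, 48.7 and 92.5 CPM in knockout, against 12.4, 19.6 and 24.4 CPM in control (2.02 on the log2 scale, SE 0.340, adjusted p = 0.00563). Aldh4a1, of proline breakdown, rose by 1.38 and Aldh6a1, of valine breakdown, by 3.13 (adjusted p = 0.00496 and 0.0161). Aldh6a1 was 2.02 without knockout library 3 and lost its call without any one control library (adjusted p = 0.0536 to 0.0719). With limma-voom it did not pass (2.67, adjusted p = 0.0566). Aldh5a1, of GABA breakdown, fell by 0.84 (adjusted p = 0.00438). Aldh1a7, a close mouse paralogue of Aldh1a1 picked after its values were seen, was at 0.817, 1.37 and 4.96 CPM in knockout and at most 0.281 CPM in control. It rose by 3.89 (2.79 without knockout library 3) and lost its call without control library 2 or 3 (adjusted p = 0.0797 and 0.0829). Reads of near-identical copies may have been split between it and Aldh1a1, which was not tested. Its order over the knockout libraries, rising from library 1 to 3, was that of Aldh1a1. Aldh4a1, Aldh6a1, Aldh1l1 and Aldh2 had the same order, and the other family members tested, Aldh1l2 among them, did not.

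**Figure D3:**
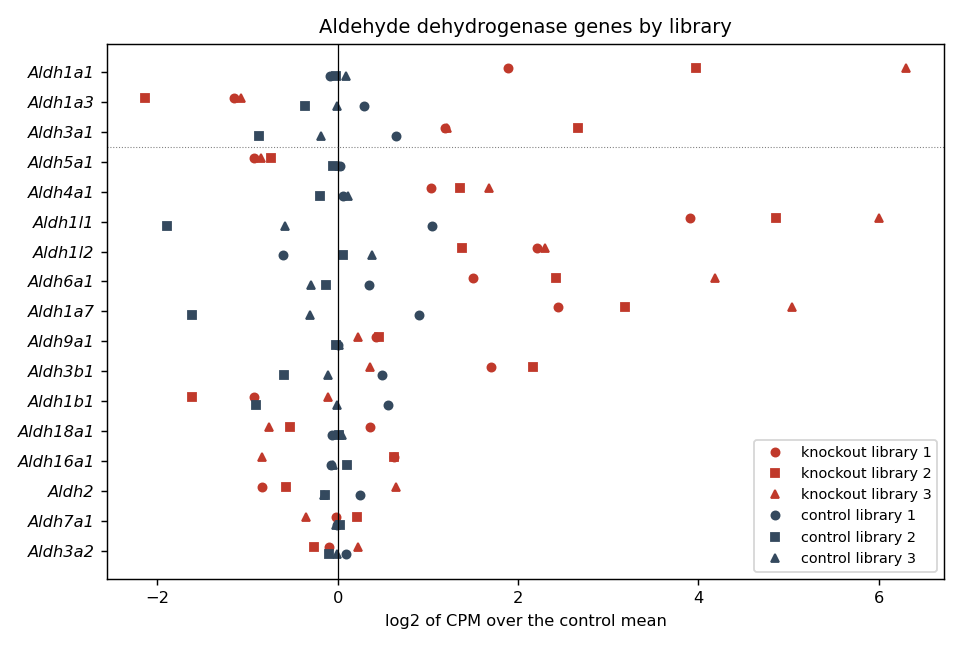
Log2 of CPM over the control mean (horizontal axis) for the 3 aldehyde dehydrogenase markers (above the dotted line) and the 14 other family members tested, in each HuR knockout library (red) and each control library (dark). Aldh1a1 spans 1.89 to 6.31 in knockout, while Aldh1a3 lies between -2.13 and -1.07.

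Genes that supply, carry, degrade or sense retinoic acid, the product of the ALDH1A enzymes, moved in both directions: of 22 listed, 14 were tested, 3 rose, 3 fell and 8 did not pass (median 0.55), and 1 fell without control library 1. Rdh10, which makes the retinaldehyde used by these enzymes, fell to 22.7, 12.9 and 20.5 CPM in knockout, against 111, 98.9 and 80.6 CPM in control (-2.37, SE 0.248, adjusted p = 0.00111). Dhrs3, which returns retinaldehyde to retinol, fell by 3.22 (adjusted p = 0.0139; -4.16 without knockout library 3, and adjusted p = 0.0514 without control library 1). Cyp26b1, which degrades retinoic acid, rose to 19.8, 16.3 and 16.4 CPM in knockout, against 0.374, 0.246 and 0.547 CPM in control (5.49, SE 0.327, adjusted p = 0.000275). The receptor gene Rarg rose by 1.12 (adjusted p = 0.00169), and so did Rarb (1.68), while Rdh11, a retinol dehydrogenase, fell (-0.57). Rdh11 lost its call without knockout library 1 or any one control library (adjusted p = 0.0663 to 0.121). Of 11 other genes of the aryl hydrocarbon receptor battery, 5 were tested, of which the receptor gene Ahr rose (0.89, SE 0.235, adjusted p = 0.0272) and 4 did not pass. The call of Ahr was lost without any one control library or without knockout library 2 (adjusted p = 0.0589 to 0.112), and 3 genes passed without knockout library 3.

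Among the transcription factors, Sox2, a regulator of stem and squamous progenitor cells, was at 13.4, 15.7 and 10.96 CPM in knockout and 11.4, 9.18 and 8.57 CPM in control. Knockout library 3 lay inside the control range. The difference was 0.46 on the log2 scale (SE 0.216, 95% interval -0.06 to 0.97, adjusted p = 0.143), and 0.58 without knockout library 3, where it passed (adjusted p = 0.0303).

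Klf4, which drives barrier differentiation in squamous epithelium, was at 60.7, 11.6 and 49.4 CPM in knockout and 36.7, 20.7 and 21.6 CPM in control. Knockout library 2 was below every control library, and knockout libraries 1 and 3 were above all of them. The difference was 0.62 on the log2 scale (SE 0.577, 95% interval -0.76 to 2.00, adjusted p = 0.436). It was 1.06 without knockout library 2, where it passed (adjusted p = 0.0458).

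Bmi1, also named Pcgf4, encodes a subunit of polycomb repressive complex 1 and is known for silencing the Cdkn2a locus. It was at 77.6, 89.6 and 62.9 CPM in knockout and 43.4, 53.1 and 51.0 CPM in control, with every knockout library above every control library. The log2 fold change was 0.64 (SE 0.167, 95% interval 0.24 to 1.04, adjusted p = 0.0258). The size was similar in each reduced set (0.52 to 0.77), but the call was lost without knockout library 1 or 2 (adjusted p = 0.0555 and 0.0682) and without control library 1, 2 or 3 (0.0977, 0.0808 and 0.0917).

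Of the 19 other subunits and partners of polycomb complex 1, all were tested; 4 rose, 5 fell and 10 did not pass (median 0.19). Without any one control library, 3 passed. Cbx8, a chromodomain subunit, rose to 31.2, 30.3 and 31.8 CPM in knockout, against 16.2, 13.3 and 17.4 CPM in control (0.99, SE 0.153, adjusted p = 0.00391). Pcgf5 rose by 0.56, while Pcgf6 and Yaf2 fell by 0.65 and 0.77 (adjusted p = 0.0211, 0.00877 and 0.0102). The call of Pcgf5 was lost without any one control library (adjusted p = 0.0574 to 0.116). Pcgf1 and Pcgf2 also rose (0.72 and 0.54), and Kdm2b, Rybp and Phc2 also fell (-0.61, -0.59 and -0.52). These 5 lost their calls without any one control library (adjusted p = 0.0521 to 0.116), Kdm2b and Rybp also without knockout library 1 (0.0626 and 0.0713), and Pcgf2, Rybp and Phc2 without knockout library 2 (0.0509, 0.0858 and 0.0577). Of 12 genes of polycomb complex 2, Phf1 rose (0.87, adjusted p = 0.0286) and 11 did not pass, among them the methyltransferase gene Ezh2 at 91.3, 72.7 and 28.5 CPM in knockout and 132, 129 and 123 CPM in control (adjusted p = 0.0897). Phf1 lost its call without any one control library (adjusted p = 0.0585 to 0.118); 2 genes of that complex passed without knockout library 1 or 2 and 4 without knockout library 3. Of 4 cell cycle inhibitor genes known as polycomb targets, Cdkn2a rose to 414, 435 and 369 CPM in knockout, against 227, 192 and 196 CPM in control (0.99, SE 0.135, adjusted p = 0.00261), and 3 did not pass. Without knockout library 3, 2 of the 4 passed.

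Of the 16 other KLF genes, 14 were tested; 4 rose, 1 fell and 9 did not pass (median 0.73), and without control library 1, 2 or 3, 3, 2 and 3 passed. Klf13 rose to 149, 182 and 337 CPM in knockout, against 52.7, 64.3 and 69.8 CPM in control (1.84, SE 0.322, adjusted p = 0.00655). Klf12 rose by 1.90 and Klf2 by 1.32 (adjusted p = 0.0151 and 0.0371). Klf12 lost its call without control library 1 or 2 (adjusted p = 0.0618 and 0.0691), and Klf2 without knockout library 1 or 3 (0.0733 and 0.113) or control library 2 or 3 (0.115 and 0.119). The fourth, Klf15, stood in a row that had been divided by 11. It was at 24.7, 41.7 and 161 CPM in knockout and at 0, 0 and 0.0608 CPM in control. The 0 in control library 1 both set that division and enters the test. With such rows left out, 3 of 13 KLF genes tested rose. Klf16 fell (-0.79), a call lost without knockout library 1 or any one control library (adjusted p = 0.0677 to 0.135). Of 20 squamous differentiation genes, the programme KLF4 is known to drive, 10 were tested; 3 rose, 3 fell and 4 did not pass (median -0.07), and 3 passed without any one control library. Krt13, a keratin of oral epithelium, rose by 2.74 (adjusted p = 0.00141). Krt4, its partner keratin, rose to 7.68, 3.53 and 1.78 CPM in knockout, against 0.796, 0.540 and 0 CPM in control (3.22, adjusted p = 0.0411), and passed in the reduced sets only without knockout library 3 (adjusted p = 0.0663 to 0.13 in the others, with 2.52 without knockout library 1 and 3.90 without control library 1). Cdsn, the desmosomal protein corneodesmosin, was at 7.79, 1.72 and 115 CPM in knockout and at 0.0468, 0.737 and 0.486 CPM in control, so that knockout library 3 stood far above the others. Its log2 fold change of 6.61 (adjusted p = 0.0319) was 3.49 without that library and 7.32 without control library 2, and the call was lost without any one control library (adjusted p = 0.0972 to 0.108) and with limma-voom (0.22). The surface protein gene Lypd3, the envelope gene Sprr1a and the transglutaminase gene Tgm1 fell, to -3.14, -3.85 and -3.55 on the log2 scale relative to control (adjusted p = 0.00912, 0.0158 and 0.0249). Lypd3, Sprr1a and Tgm1 were at -4.09, -4.71 and -5.40 without knockout library 1, and Sprr1a was at -2.83 without control library 1. Sprr1a lost its call without knockout library 3 (adjusted p = 0.0899). Tgm1 kept its call in the reduced sets only without knockout library 1 (adjusted p = 0.0521 to 0.0832 in the other sets).

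**Figure D4:**
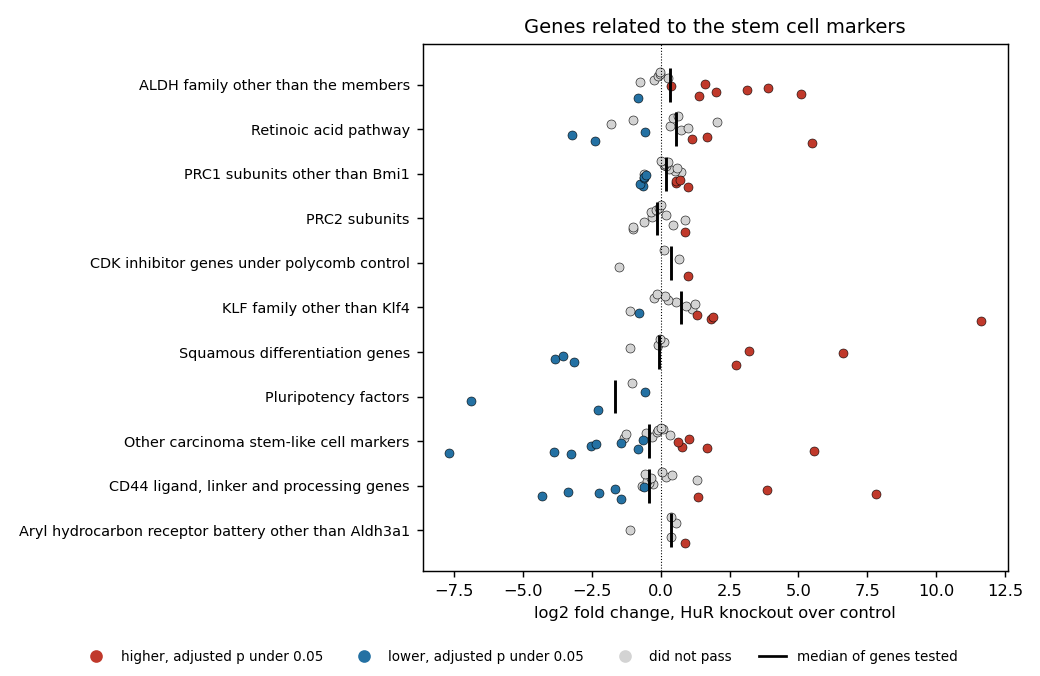
Log2 fold change, HuR knockout over control (horizontal axis), of every tested gene in the lists of related genes, 1 row per list, with the list median as a vertical bar. Red and blue points passed the test across all genes and grey points did not; every list with more than 5 genes tested holds genes on each side of 0, and the point farthest right is Klf15, whose row was divided by 11.

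Other genes used as markers of stem-like carcinoma cells also moved in both directions. Of 26 listed, 22 were tested; 5 rose, 8 fell and 9 did not pass (median -0.41). Without control library 1 or 3, 7 and 6 passed. Lgr6, an R-spondin receptor of skin stem cells, fell to 0.218, 0.049 and 0.306 CPM in knockout, against 37.3, 39.0 and 39.7 CPM in control (-7.67, SE 0.409, adjusted p = 0.000205). Procr, a receptor of protein C that marks mammary stem cells in mouse, fell to 17.7, 15.1 and 20.6 CPM, against 176, 165 and 164 CPM in control (-3.24, SE 0.154, adjusted p = 0.000205). The epithelial adhesion gene Epcam fell by 3.87 (adjusted p = 0.000645). Krt15, a keratin of hair follicle stem cells, rose to 25.2, 25.4 and 77.3 CPM in knockout, against 0.889, 0.786 and 1.03 CPM in control (5.56, SE 0.583, adjusted p = 0.00113), and was at 4.81 without knockout library 3. Dclk1, Podxl, Cd9 and Ngfr were the others that rose (1.68, 0.77, 0.63 and 1.02). Podxl lost its call without any one control library (adjusted p = 0.0532 to 0.0723), Cd9 without control library 2 or 3 (0.108 and 0.109), and Ngfr without any one library other than knockout library 3 (0.0805 to 0.151). Of 12 pluripotency genes, Pou5f1, Sall4, Lin28a and Tdgf1 had no count in any library and 4 genes were tested. Of these, 3 fell and 1 did not pass (median -1.64). Lin28b, which blocks let-7 maturation, fell to 2.89, 3.38 and 1.71 CPM in knockout, against 9.92, 14.2 and 14.3 CPM in control (-2.26, SE 0.322, adjusted p = 0.00306). Myc fell by 0.57 (adjusted p = 0.0129), and did not pass when control library 2 or 3 was left out (adjusted p = 0.0615 and 0.0543). Utf1, named here after its values were seen, was at 0 in every knockout library and at 1.08, 0.688 and 0.547 CPM in control. Its log2 fold change of -6.88 passed (adjusted p = 0.00791), with a size that rests on 0 counts in knockout. Tfcp2l1 did not pass.

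The knockout libraries disagreed with each other more than the control libraries did for some markers. The highest over the lowest CPM was 5.25 in knockout and 1.78 in control for Klf4, and 21.4 and 1.14 for Aldh1a1. Over the 10296 genes whose mean CPM was 5 or more the median of this ratio was 1.48 in knockout and 1.17 in control. Cd44, Bmi1 and Sox2 lay at or below that median in knockout, at 1.24, 1.42 and 1.43. Knockout library 3, which stood apart across genes, was the highest knockout library for Aldh1a1, Aldh1a3 and Cd44 and the lowest for Cd24a, Sox2 and Bmi1. Knockout library 2 was the highest for Aldh3a1, Sox2, Bmi1 and Cd24a and the lowest for Aldh1a3 and Klf4.

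Genes with the most similar pattern to each marker were ranked by Pearson's r of log2 CPM over the 6 libraries, among 10142 genes of at least 5 CPM on average, predicted genes, clone names and pseudogenes left out. These points share the group split and the libraries, so r is a description only. Akap12, Procr and Dpysl5 were nearest to Prom1 (r = 0.999, 0.998 and 0.998), and 581 genes exceeded 0.95. Ndrg3, Pcx and Serpina3n were nearest to Aldh1a1 (r = 0.999, 0.998 and 0.998), with 585 genes over 0.95. Klf4 had 9 such genes, led by Stbd1, Trib1 and Nupr1 (r = 0.987, 0.974 and 0.968), and Cd44 had 15, led by Cnn2, Mob3b and Tmem181a (r = 0.989, 0.988 and 0.980). For Aldh1a3 the nearest were Nod2, Dlc1 and Myh9, and for Cd24a Cnp, Nde1 and Msrb2. Sfxn1 and Gtf2i were among the nearest to Bmi1. For Aldh3a1 they were Gnai2, Arhgef10 and Mboat2, and for Sox2 Tmed9, Asap1 and Cnpy3.

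Markers of cell types were read to see what cells the libraries represent. Of 12 epithelial markers 11 were tested and 9 fell; their summed level was 5822 to 8573 CPM in knockout and 11739 to 14374 CPM in control, with Krt8 and Krt18 among the 9 (Krt8 lost its call without control library 1 or 2, adjusted p = 0.0594 and 0.0513). Epcam and Esrp1, given above, belong to that list. Of 12 fibroblast markers, Col3a1, Pdgfrb and Col1a1 rose, and the sum was 409 to 430 CPM in knockout and 3.73 to 8.47 CPM in control. In the same list Col1a2, Dcn, Fap and Postn stayed under 1 CPM in every library and Lum had no count. Of 10 endothelial markers, 1 was tested and rose (log2 fold change 3.48). Of the same 10, 9 stayed under 1 CPM in every library, and the sum was 2.94 to 3.14 CPM in knockout and 0.737 to 0.911 CPM in control. Of 12 leukocyte markers 10 did so, 5 of them with no count in any library, among them Itgam and Adgre1. Their sum was 3.68 to 37.7 CPM in knockout and 3.04 to 7.82 CPM in control, with Cd68 alone giving 36.9 CPM in knockout library 3. The part of these shifts in the marker levels above was not tested.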

How the data were processed

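RNA-seq counts of 6 MOC2 libraries, 3 HuR knockout and 3 control, were analysed. The authors deposited whole-number counts per gene symbol; the submitters' processing notes name STAR 2.7.1a, featureCounts and hg38, in no stated role. Annotation and strandedness: not given in the sources used here. For genes that overlap or share reads, the counting could not be examined. Libraries were grouped by their titles. The 1704 rows at 0 in control library 1 with a count elsewhere hold only multiples of 11 and were divided by 11; no label explains this.

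Genes were filtered with filterByExpr and tested with edgeR 4.0.16 in R 4.3.3 (TMM scaling, robust quasi-likelihood test, Benjamini-Hochberg over all genes, threshold 0.05; biological coefficient of variation 28.0%). Standard errors come from the fold change and the F statistic. The procedure was tested on simulated counts. No library was a duplicate of another in its group (chi-square of counts per degree of freedom 8.64 to 178). The members and lists were chosen with earlier results of these data known. The rule for named genes took the 9 markers, Elavl1, up to 4 called genes per list with the smallest p and a mean of at least 5 CPM (up to 2 genes where none passed), and the 3 genes most like each marker by Pearson's r of log2 CPM (prior count 2); 1 gene so named is not reported here. Other genes are named for a list's count, as paralogues or relatives of a named gene or as cell type markers, and were picked after their values were seen. Alternatives were DESeq2 1.42.0, limma-voom (limma 3.58.1), other scalings, no filter, the deposited values, the divided rows left out, the replicate number as a block and leaving out each library.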

Additional observations from a re-analysis of the deposited data

How the results depend on the processing

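Each result was recomputed under 14 alternatives. No marker changed direction under any of them. Of 126 values of the 9 markers under these alternatives, 106 kept their side of the threshold, 16 lost the call and 4 gained one; those from left-out libraries stand beside the results above. With DESeq2 Cd44 passed (-0.35, adjusted p = 0.0357), and with limma-voom Aldh1a1 did not. Leaving out 1 library at a time, 1 to 6 markers passed, where 5 did with all libraries; 34 to 82 of the related genes passed, where 62 of 137 did; and 2312 to 6021 of all genes passed, where 4392 did. Of 33 related genes named by rule, 23 kept their call in every alternative in which they were tested. The count for polycomb complex 2 was 1, and 3 with DESeq2; for the KLF genes 5, and 8 with DESeq2; for the aryl hydrocarbon receptor battery 1, and 2 with DESeq2, with no filter on low counts or with the deposited values.

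Whether the replicate numbers of the titles pair the libraries could not be decided from 3 libraries per group. The deviations of knockout and control libraries 1, 2 and 3 from their group means correlated at -0.05, 0.26 and 0.02. Control libraries 1, 2 and 3 correlated best with knockout libraries 3, 2 and 3. With a replicate block 3591 genes, 54 related genes and 4 markers passed; Aldh3a1 (1.78, adjusted p = 0.092) lost its call, 2 genes of polycomb complex 2 passed, and Ahr did not (adjusted p = 0.0626), nor did Pcgf1, Rybp, Phc2, Cd9, Ngfr and Cdsn (0.0534 to 0.0651). Depth limits Prom1 in knockout, where 1 count decides the size of the fold, and the genes of the lists left untested for low counts.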
